A study of Mus musculus with 6 samples.

Results

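Transcripts of the cytosolic ribosomal proteins, the protein subunits of the ribosomes that translate messenger RNA in the cytoplasm, were followed across 6 cultures of mouse dendritic cells. Members were all probe sets of the array whose single annotated symbol begins with Rpl (large subunit) or Rps (small subunit) and a digit, without the Rps6k kinases and without genes ending in -ps. The rule found 96 probe sets of 45 genes, out of 20380 probe sets with a single symbol and 12393 genes. A probe set counted as measured when its signal was above 53.5 (the 40th percentile of the non-control signals) on at least 2 of the 6 arrays. This left 80 probe sets of 41 genes, of which 21 belong to the large and 20 to the small subunit. The other 16 probe sets include all those of Rpl14, Rpl3l, Rpl39l and Rps4l, so these 4 genes were not measured. At the edge of this threshold, the second-highest signal was 66.6 for the dimmest Rpl41 probe set, which was kept, and 46.7 for Rpl39l, which was not. A further 101 probe sets carry several symbols, one of them ribosomal, and were left out.

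The cells were dendritic cells, the antigen-presenting cells that prime T cells, and were grown from the bone marrow of a female CAR-transgenic mouse aged 13 weeks. After 7 days of progenitor culture and 7 days of differentiation in 250 U/ml GM-CSF they were left without virus, or given the adenovirus AdIkBa-SR or the control adenovirus AdOVA at 1500 particles per cell for 2 h, followed by 18 h of culture. TNFa, a cytokine that activates the transcription factor NF-kB, was then given to part of the cells of each kind, at 50 ng/ml over 4 h. IkBa-SR is a super-repressor form of the NF-kB inhibitor IkBa. The 6 groups are, without TNFa, untreated, AdOVA and AdIkBa-SR, and, with it, TNFa, AdOVA+TNFa and AdIkBa-SR+TNFa. All carry the CAR transgene (the sources used here give no promoter), and each has 1 Affymetrix MOE430A array. A log2 difference between 2 arrays therefore has no replicate check, and whether the groups were separate cultures of cells is not stated in the labels.

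Each ribosome holds a single copy of nearly every ribosomal protein around its ribosomal RNA core, and cells make these proteins in balanced amounts. Their messenger RNAs are among the most abundant in growing cells and typically begin with a run of C and T bases at the transcription start, the terminal oligopyrimidine or TOP element, through which growth signals control their translation. Ribosome assembly takes place mainly in the nucleolus, and several ribosomal proteins that are free of the ribosome bind Mdm2, the ligase that degrades p53.

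The start sites of some measured genes are shown because a C and T run at the start is the element these messages are known for. Promoters in the RefSeq table (build GRCm38.p6) matched 36 of the 41 measured genes, with 43 promoters in all. Each sequence covers the 30 bases around the annotated start, 5′ to 3′ on the gene's strand, with the longest run of C and T in capitals.
Rps18, chr17:33955651-33955680, minus strand: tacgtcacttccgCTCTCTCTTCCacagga
Rpl35, chr2:39005117-39005146, minus strand: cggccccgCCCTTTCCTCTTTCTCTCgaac
Rpl7a, chr2:26910792-26910821, plus strand: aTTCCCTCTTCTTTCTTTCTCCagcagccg
Rps10, chr17:27635230-27635259, minus strand: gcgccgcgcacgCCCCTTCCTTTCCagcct
Rpl13a, chr7:45128731-45128760, minus strand: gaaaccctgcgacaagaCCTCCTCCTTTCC
Rpl4, chr9:64173372-64173401, plus strand: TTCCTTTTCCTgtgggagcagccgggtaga
Rps27l, chr9:66946071-66946100, plus strand: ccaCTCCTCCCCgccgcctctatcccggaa
Rps2, chr17:24720048-24720077, plus strand: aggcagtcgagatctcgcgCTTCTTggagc
Rps3, chr7:99483695-99483724, minus strand: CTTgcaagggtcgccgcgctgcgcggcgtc
Rpl7l1, chr17:46782642-46782671, minus strand: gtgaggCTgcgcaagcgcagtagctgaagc
The longest run of C and T, anywhere in the 30 bases, reached 8 or more bases in 17 of the 43 promoters (39.5%). The share was 12.0% of all 32851 promoters in the table. Where a run lay relative to the start was not counted, so these are not shares with a TOP element. The longest run was 18 bases long in Rpl35 and 11 in Rps18, but 6 in Rps2, 3 in Rps3 and 2 in Rpl7l1. Its median over the 43 promoters was 6, and long runs are more frequent among the start sites shown. A second promoter of Rps27l, not shown, had a run of 4. The letters CCGGAA, which hold the core that ETS-family factors bind, were found on either strand of the 300-base promoters in 55.8% of the 43 and 14.9% of all, and AAGATGGC, the core of the YY1 motif, in 9.30% and 2.75%. Both letter strings can overlap other motifs, and a match is a description of sequence only.

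Of the dendritic cell markers, 11 of 12 were measured, with Flt3 above 53.5 on 1 array only. Their summed signal ran from 6551 to 9350, the latter in untreated cells. None of 3 T cell markers was measured. All 8 granulocyte markers were, and S100a8 and S100a9 made up most of their sum. That sum stood at 19731 in untreated cells and 12675 after TNFa, at 17420 in AdOVA cells and 9603 after TNFa, and at 23171 in AdIkBa-SR cells and 24896 after TNFa. It was thus lowest on AdOVA+TNFa, the array on which the ribosomal protein signals were lowest. Of the granulocyte markers, however, Mpo, Ngp and Ltf were not lowest there. The summed signal of 5 mast cell and basophil markers was lowest there too, at 791, next to 863 with AdOVA and at most 1534. Mcpt8 and Fcer1a were lowest there, but Cpa3, Tpsb2 and Ms4a2 were not. The sum of the 9 proliferation markers, of which 7 were measured, was also lowest on that array. It stood at 1379, against 2228 in untreated cells and 2533 in AdIkBa-SR cells. Top2a, a DNA topoisomerase of dividing cells, read 226 untreated and 194 with TNFa, 56.2 with AdOVA and 77.5 after TNFa, and 177 with AdIkBa-SR and 194 after TNFa, so both AdOVA arrays were the lowest. Rrm2, a subunit of the enzyme that makes deoxyribonucleotides, read 166, 149, 46.1, 33.5, 151 and 106 in the same order. Cdk1 and Mcm2 were also lowest on both AdOVA arrays, but Mki67, Pcna and Mcm5 were not. Mki67 read 201 with AdOVA+TNFa and was lowest, at 113, with AdIkBa-SR+TNFa. On the AdOVA array Pcna read 1466 and Mcm5 78.1, against 1229 and 74.8 untreated. Pcna made up most of the proliferation sum. The dendritic cell sum was lowest, at 6551, on the AdOVA array. The part of these markers in the results was not tested, and in bulk RNA fewer cells of a type and less RNA per cell cannot be told apart. The untreated, TNFa and AdOVA arrays were hybridized in 1 round and the other 3 in another, and the AdIkBa-SR array was washed by a different protocol. The comparisons TNFa over untreated and AdOVA over untreated lie within round 1, and AdIkBa-SR+TNFa over AdOVA+TNFa and over AdIkBa-SR within round 2. Both rounds are spanned by the pairs AdOVA+TNFa over untreated, over TNFa and over AdOVA. The same holds for AdIkBa-SR over untreated and over AdOVA, and for AdIkBa-SR+TNFa over TNFa. In all these pairs the round and the treatment cannot be told apart. In every pair with the AdIkBa-SR array the wash protocol differs as well.

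The ribosomal protein genes took a common course across the arrays, with the highest signals mostly in untreated cells and the lowest in cells given both AdOVA and TNFa. The brightest probe set stood for each gene. Of 41 genes, 36 had their lowest signal on the AdOVA+TNFa array, as had 67 of the 80 probe sets against 18.4% of all 14906 measured probe sets. The highest signal was on the untreated array for 27 genes and 49 probe sets, against 12.4% of all. The median log2 signal relative to each gene's own mean was 0.45 in untreated cells and -0.10 after TNFa, and 0.08 in AdOVA cells and -0.86 after TNFa. In AdIkBa-SR cells it was 0.24 before and 0.20 after TNFa, so these cells stood between untreated and AdOVA cells without TNFa and above both with it. Of these comparisons, only that of AdIkBa-SR+TNFa with AdOVA+TNFa lies within the same round. From untreated to AdOVA+TNFa, arrays of different rounds, the median log2 difference was -1.33, which is 2.52-fold lower, and 33 of 41 genes were at least 2-fold lower, against 7.05% of all probe sets.

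**Figure D1:**
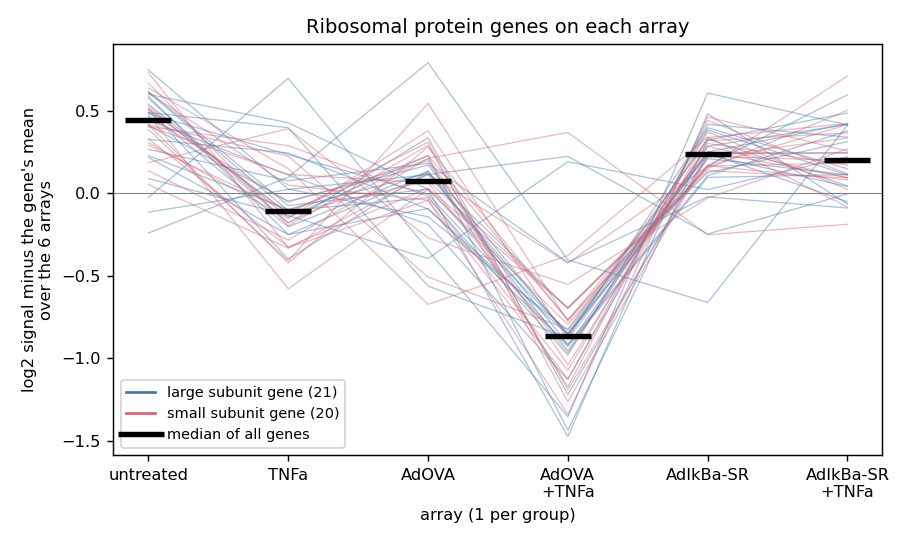
Log2 MAS5 signal of each of the 41 measured ribosomal protein genes (1 line per gene, brightest probe set) minus that gene's mean over the 6 arrays, with large and small subunit genes in separate colours and black bars for the median. The median is highest at 0.45 on the untreated array and lowest at -0.86 on the AdOVA+TNFa array, where 36 of 41 genes have their lowest signal.

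The control probe sets for 18S ribosomal RNA, the RNA core of the small subunit, were highest where the ribosomal protein signals were lowest. The 5′ probe set read 120.3 in untreated cells and 176 after TNFa, 234 in AdOVA cells and 2601 after TNFa, and 340.4 in AdIkBa-SR cells and 537 after TNFa. The 3′ probe set read 229, 373, 289, 1061, 414 and 410.0 in the same order, and the middle one 68.6, 115, 80.3, 303, 122 and 128. The AdOVA+TNFa array was thus 4.84, 2.57 and 2.36 times the next highest array in the 5′, 3′ and middle probe sets. Ribosomal RNA has no poly(A) tail, and the labelled RNA was primed with oligo(dT). The actin control's 3′ over 5′ signal ratio, a measure of RNA length, was 1.38 on the AdOVA+TNFa array, inside the 1.09 to 1.84 spanned by all arrays, and the Gapdh ratio ran from 0.742 to 0.880. The part of the 18S signal in the ribosomal protein results was not tested.

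**Figure D2:**
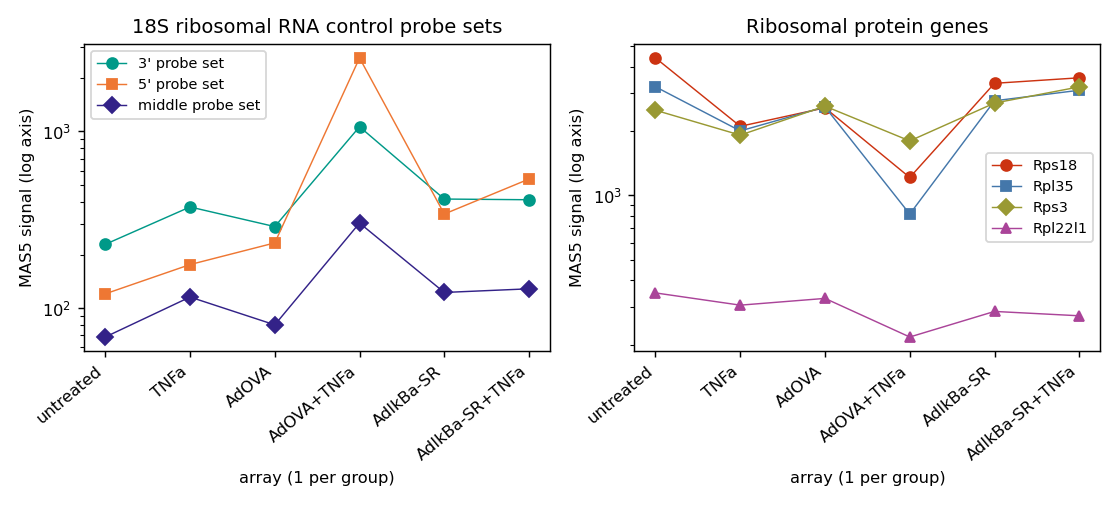
MAS5 signal on log axes for the 3 probe sets of 18S ribosomal RNA (left) and for 4 ribosomal protein genes (right) on each of the 6 arrays, 1 array per group. The 18S probe sets peak on the AdOVA+TNFa array, at 2601 for the 5′ probe set, where Rps18, Rpl35, Rps3 and Rpl22l1 have their lowest signals.

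TNFa, compared with no TNFa, went with lower ribosomal protein signals in cells without virus and in cells with AdOVA. The pair TNFa over untreated had a median log2 difference of -0.47 over 41 genes (1.38-fold lower), with 37 genes lower and 17 at least 1.5-fold lower, against 45.5% and 7.27% of all measured probe sets. In the pair AdOVA+TNFa over AdOVA the median was -0.97 (1.96-fold lower), with 37 genes lower and 33 at least 1.5-fold lower, against 44.2% and 11.5% of all. Over all measured probe sets the medians were 0.00 and 0.04. Both pairs, which share no array, were lower for 34 genes and for 68 of 80 probe sets, against 23.5% of all, and at least 1.5-fold lower in both for 33 probe sets, against 2.35%.

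Rps18, a component of the small subunit head, read 4393 untreated and 2102 with TNFa, and 2566 with AdOVA and 1211 with AdOVA+TNFa. Its log2 differences were -1.06 and -1.08, the largest decrease common to both pairs. Rpl13a, which beside its place in the large subunit takes part in a complex that silences inflammatory messages, read 4657 and 2475 without virus and 3580 and 1684 with AdOVA. Rps19, a small subunit protein mutated in Diamond-Blackfan anaemia, read 3620 and 1985 without virus, then 2784 and 996 with AdOVA. In each of these genes the TNFa array was below its partner array in both pairs. Rps10 (5622 and 3144, then 5125 and 2475) and Rpl27 (3723 and 2082, then 2322 and 1306), of the small and the large subunit, complete the 5 genes with the largest common decrease. Rpl12, near the threshold at 60.1 and 66.2, then 70.5 and 76.1, was the only gene higher in both pairs, against 29.5% of all probe sets.

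In limma's model over all 6 arrays (Benjamini-Hochberg over 14906 probe sets), no ribosomal protein probe set passed for TNFa, where 0% of all had fallen and 0.0268% risen. At an unadjusted p under 0.05, 53 of the 80 were lower and 0 higher, against 5.84% and 5.25% of all. The lowest adjusted p was 0.143, for Rps19 (fitted log2 difference -1.17, SE 0.26) and Rpl35 (-1.18, SE 0.28). The error in this model has 1 residual degree of freedom, the gap between the TNFa response of cells without virus and that of AdOVA cells, moderated over all probe sets. For the ribosomal protein genes that gap had a median of -0.49 and was negative in 35 of 41, against a median of 0.02 over all probe sets.

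In cells with the super-repressor, the TNFa pair showed no common direction. The median log2 difference of AdIkBa-SR+TNFa over AdIkBa-SR was -0.00, with 21 genes lower and 20 higher (47.7% and 45.5% of all probe sets), and none was at least 1.5-fold lower, against 6.61% of all. Rps18 read 3342 and 3546, Rps19 2659 and 2613, and Rps10 5001 and 4989. Limma called 0 of 80 probe sets for this response, and 0% of all. At an unadjusted p under 0.05, 1 of the 80 was higher and 1 lower (3.37% and 1.73% of all). Of the 34 genes whose TNFa arrays were lower in both other pairs, 15 were higher in this one. Among them were Rps18, Rpl13a, Rpl27 and Rpl35, though the probe sets of Rpl13a and of Rpl35 had both signs. The count of 15 is near the background, since 41% of all probe sets lower in both other pairs were higher here (9.61% of all measured probe sets). The test of the difference between the TNFa responses called 0 of 80 probe sets, with a lowest adjusted p of 0.972 in limma. It called 0 of all 14906 too (lowest limma adjusted p 0.382), so its 0 says nothing about the ribosomal proteins. At an unadjusted p under 0.05, 20 of the 80 had the higher and 0 the lower TNFa response in AdIkBa-SR cells, against 2.61% and 2.33% of all. As no probe set of the whole array passed after adjustment, the responses were not shown to differ, nor to be alike.

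**Figure D3:**
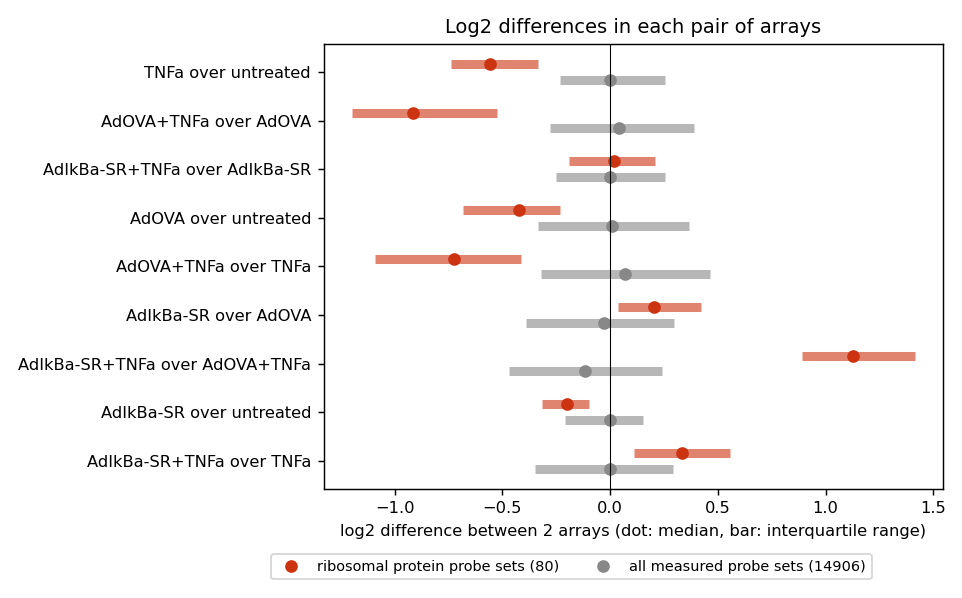
Median (dot) and interquartile range (bar) of the log2 difference in 9 pairs of arrays, for the 80 ribosomal protein probe sets and for all 14906 measured probe sets. The ribosomal protein medians are -0.56 and -0.91 in the TNFa pairs without virus and with AdOVA, 0.02 in the AdIkBa-SR pair, and 1.13 in AdIkBa-SR+TNFa over AdOVA+TNFa.

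AdOVA, compared with no virus, also went with lower ribosomal protein signals, and some probe sets passed the test in the model without the hybridization round. The pair AdOVA over untreated had a median log2 difference of -0.36 (1.28-fold lower), with 35 of 41 genes lower and 10 at least 1.5-fold lower, against 46.7% and 14% of all probe sets. AdOVA+TNFa over TNFa had a median of -0.80 (1.74-fold lower), with 38 genes lower and 28 at least 1.5-fold lower, against 42.9% and 14.2%. The medians over all measured probe sets were 0.01 and 0.07. Both pairs were lower for 34 genes and 70 of 80 probe sets, against 28% of all. Limma called 17 of 80 probe sets fallen with AdOVA and 0 risen, against 3.86% and 4.03% of all (46 lower and 1 higher at an unadjusted p under 0.05, against 11.1% and 12.4%). The 17 belong to Rpl4, Rpl6, Rpl7, Rpl8, Rpl10a, Rpl35 and Rpl37 of the large subunit and Rps2, Rps7, Rps18 and Rps27l of the small one. Among the brightest probe sets, 7 of 41 fell. An additive model, with 1 TNFa response for all cells, called 2 of the 80 fallen with AdOVA, against 1.19% of all. With the round as a block it called 0 (0% of all), and the fitted median of the 80 probe sets went from -0.63 to -0.30. Only AdOVA and AdOVA+TNFa share a virus state and differ in round, so the block rests on these arrays. It therefore cannot tell the round apart from a TNFa response particular to AdOVA cells. The AdOVA median of -0.30 is the same as in the additive model without the AdOVA+TNFa array.

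Rpl4, a large subunit protein that lines the exit tunnel for the nascent chain, read 4521 untreated, 4242 with TNFa, 2178 with AdOVA and 1752 with AdOVA+TNFa. It fell with AdOVA by 1.16 (SE 0.27, limma adjusted p 0.0124) on the log2 scale, and both AdOVA arrays were below both arrays without virus. Rps2, a small subunit protein near the entry of the messenger RNA, did likewise, with 6109 and 5350 against 3217 and 2585 (adjusted p 0.0429). Rpl37, a zinc-binding large subunit protein, stood at 709.8 and 430.0 without virus against 383 and 237 with AdOVA (adjusted p 0.0387). In Rpl4 and Rps2 the TNFa arrays lay close to their partners, at log2 differences of -0.09 and -0.31 and of -0.19 and -0.32, unlike in Rps18.

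Rpl6, which is among the large subunit proteins that bind Mdm2, read 4334, 3844, 2906 and 1026 on the same 4 arrays and fell by 1.24 (SE 0.30, adjusted p 0.0177). The pair with TNFa had a log2 difference of -1.91 and the pair without it -0.58. Rpl8, which helps to form the peptidyl transferase region, read 2122, 1683, 1368 and 712 and also fell (adjusted p 0.0283). Rps10 (5622, 3144, 5125 and 2475) and Rps20 (4584, 2636, 5118 and 2044) were, by contrast, close between AdOVA and untreated. Their fitted AdOVA differences were -0.24 and -0.10 with limma adjusted p of 0.66 and 0.861, while the dimmer probe sets of Rps10 gave -0.80 to -0.35 and that of Rps20 gave -0.50, none of them called. The genes with the largest common decrease for AdOVA and for TNFa overlapped in Rps18 and Rpl27. Both rankings use the same 4 arrays, so the overlap is not independent evidence.

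**Figure D4:**
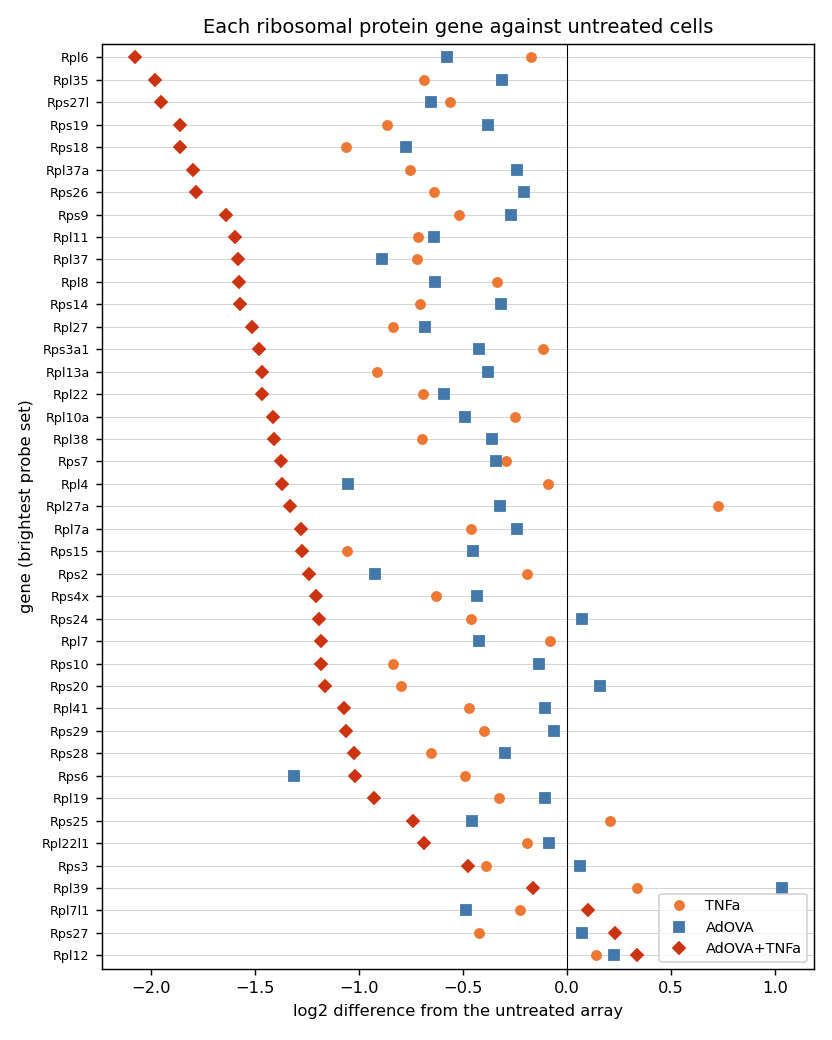
Log2 difference from the untreated array for each of the 41 genes (brightest probe set), with circles for TNFa, squares for AdOVA and diamonds for AdOVA+TNFa, ordered by the last. The AdOVA+TNFa signal is at least 2-fold below untreated for 33 genes, while Rpl12, Rps27 and Rpl7l1 are above it.

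The super-repressor virus, compared with AdOVA, went with higher ribosomal protein signals. Calls were made with TNFa present, while the contrasts with and without TNFa were not shown to differ. Without TNFa the pair AdIkBa-SR over AdOVA had a median log2 difference of 0.12, with 29 of 41 genes higher and 5 at least 1.5-fold higher, against 44.2% and 12.2% of all probe sets. With TNFa the median was 1.06 (2.09-fold higher), with 39 genes higher and 36 at least 1.5-fold higher, against 38.7% and 13.1%. All-probe-set medians were -0.03 and -0.12. Limma called 24 of 80 probe sets risen and 0 fallen with TNFa, against 2.35% and 1.66% of all (62 higher and 0 lower at an unadjusted p under 0.05, against 8.9% and 9.22%). Without TNFa it called 0 (0.436% risen and 0.731% fallen of all), with 8 higher and 2 lower at an unadjusted p under 0.05, against 5.9% and 7.96%. Whether these contrasts differ is the same test as that of the TNFa responses above, which called no probe set of the whole array. The fitted contrast uses arrays of all 3 virus states and can differ from the pair of signals beside it.

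Among the risen genes, Rps15, a small subunit head protein, read 718 with AdOVA+TNFa and 2041 with AdIkBa-SR+TNFa, a fitted rise of 1.57 (SE 0.32, limma adjusted p 0.0110). Without TNFa it read 1268 with AdOVA and 1390.0 with AdIkBa-SR. Rpl35, at the exit of the tunnel, read 816 and 3101 with TNFa but 2591 and 2768 without (adjusted p 0.0165 with TNFa). Rps18 rose from 1211 to 3546 (adjusted p 0.0185). For each of these genes the AdOVA+TNFa array was the lowest of all 6, and AdIkBa-SR+TNFa was near or above AdIkBa-SR. Rpl4 and Rps2 stood out without TNFa too, at 2178 against 4242 and 3217 against 5706, differences of 0.96 and 0.83 that did not pass. Compared with untreated cells rather than AdOVA, a pair that differs in round and wash protocol, AdIkBa-SR was lower in 38 of 41 genes, against 50.4% of all probe sets, with a median of -0.22.

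The medians of all 3 contrasts were nearer 0 without the AdOVA+TNFa array. In the pairs without it, the medians were -0.47 for TNFa, -0.36 for AdOVA and 0.12 for AdIkBa-SR against AdOVA, where the averages of both pairs' medians were -0.72, -0.58 and 0.59. In an additive limma model the fitted TNFa median of the 80 probe sets was -0.47, and -0.27 with the round as a block or without the AdOVA+TNFa array. Without that array the model called no probe set of the whole array for AdOVA or AdIkBa-SR, so its 0 calls say nothing about the ribosomal proteins. With quantile normalization of all 6 arrays, limma's count of ribosomal protein probe sets fallen with AdOVA went from 17 to 2, while that of all probe sets went from 575 to 109. The count risen for AdIkBa-SR against AdOVA with TNFa went from 24 to 0, and from 350 to 6 over all probe sets, so the loss was array-wide.

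Large and small subunit genes were both lower in the TNFa and AdOVA pairs. For TNFa over untreated their medians were -0.33 (21 genes) and -0.54 (20 genes), for AdOVA+TNFa over AdOVA -0.94 and -1.04, and for AdOVA over untreated -0.38 and -0.33. In the pair AdIkBa-SR+TNFa over AdOVA+TNFa they were 1.04 and 1.08. The difference between the subunits was not tested.

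Genes with paralogs did not all follow the common course. Rpl22, an RNA-binding large subunit protein needed in T cell development, read 1214, 751, 805, 439, 929 and 813, in the order of untreated, AdOVA and AdIkBa-SR cells, each without and then with TNFa. Its paralog Rpl22l1 read 349, 306, 329, 217, 286 and 273, with an SD of 0.24 log2 units over the arrays against 0.48 for Rpl22. Both had their lowest signal with AdOVA+TNFa.

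Rps27l, a p53-inducible paralog of Rps27, read 1662, 1127, 1058, 429, 1500.4 and 1301 in that order. It fell with AdOVA (fitted -1.02, SE 0.25, adjusted p 0.0180) in all 3 of its probe sets. Rps27 itself was dim and stood apart, at 177, 132, 187, 208, 135 and 141, with its highest signal on the AdOVA+TNFa array. Rpl7 read 3463, 3271, 2583, 1524, 3470.4 and 2847 from its brightest probe set, and its other 2 probe sets fell with AdOVA (adjusted p 0.00492 and 0.0238). Rpl7l1, a paralog with a role in ribosome assembly, read 265, 227, 189, 284, 253 and 290.5, with its lowest signal on the AdOVA array. The AdOVA+TNFa array was thus low for Rpl22, Rpl22l1, Rps27l and Rpl7, but not for Rps27 and Rpl7l1.

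Some members have known roles beside the ribosome. Rps3, which also acts in DNA repair and binds the p65 subunit of NF-kB, varied little, at 2499.9, 1912, 2613, 1796, 2701 and 3216. Its log2 difference of AdOVA+TNFa from untreated was -0.48, against the median of -1.33, and its highest was with AdIkBa-SR+TNFa. Rpl11, which binds Mdm2 together with 5S RNA, read 3131, 1904, 2010.3, 1037, 2675 and 2214. Its fitted AdOVA difference of -0.76 (SE 0.25) had an adjusted p of 0.0704. Mdm2 itself read 1384, 1849.7, 2752, 2593, 1653 and 1501, with an adjusted p of 0.0800 for AdOVA. Rps6, the substrate of S6 kinase, was dim, at 146, 104, 58.5, 71.9, 118 and 88.2, and lowest with AdOVA. Rps4x, an X-linked small subunit gene, read 4428, 2859, 3280.0, 1919, 3421 and 3319. Of these genes Rps3, Rpl11 and Rps4x were lowest with AdOVA+TNFa, and Rpl11, Rps6 and Rps4x highest untreated.

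The exceptions to the common course were mostly dim. By SD of the log2 signal over the arrays, the least variable genes were Rpl12 (0.17), Rpl7l1 (0.23) and Rpl22l1 (0.24), and the most variable were Rpl27a (0.77), Rpl6 (0.77) and Rpl35 (0.75). Rpl27a stayed between 47.7 and 222, and Rpl39 between 121 and 332 with its highest signal on the AdOVA array. Of the 80 probe sets, 57 had a mean signal above 1000, where 8.66% of all did. All 57 were lower in TNFa over untreated (median -0.62) and all 57 higher in AdIkBa-SR+TNFa over AdOVA+TNFa (median 1.23). The 23 dimmer ones had medians of -0.42 and 0.77. The 1234 other probe sets above 1000 had medians of -0.02 and 0.17 in these pairs, and of -0.15 in AdOVA+TNFa over AdOVA. At an unadjusted p under 0.05 in limma, 214 of them were lower for TNFa and 52 higher, where the 57 ribosomal protein probe sets had 46 and 0. Part of the other bright probe sets thus had lower signals with TNFa too, and the difference between the groups was not tested.

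Probe sets of one gene agreed in direction for TNFa over untreated, where none of the 19 genes with several measured probe sets had both signs. For AdOVA+TNFa over AdOVA, 4 of 19 had both. The widest spread in that pair was in Rpl35, where the dimmest of 6 probe sets read 118 and 113 while the brightest read 2591 and 816. Both signs occurred in 9 of 19 genes for AdIkBa-SR+TNFa over AdIkBa-SR and in 8 of 19 for AdIkBa-SR over AdOVA. Probe sets named _x_at or _a_at may bind related transcripts or several transcripts of a gene, and ribosomal protein genes have many processed pseudogenes. The 14 plain _at probe sets had medians of -0.28 and -0.53 in the TNFa pairs, where the 38 _x_at probe sets had -0.66 and -1.04. Their share of signal from pseudogenes or other copies was not measured.

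Ribosomal proteins that the naming rule misses were lower in the TNFa pairs as well. Of Rpsa, Rplp0, Rplp2 and Fau, the 4 measured of 7 listed, all were lower in both TNFa pairs (medians -0.55 and -0.67). Rplp2, a protein of the stalk that recruits elongation factors, read 4757, 2819, 3356, 1785, 3715 and 4836 and rose for AdIkBa-SR against AdOVA with TNFa (limma adjusted p 0.0342). It was the only one of the 4 called in either direction, against 2.35% of all probe sets risen in that contrast.

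Genes for assembling ribosomes had medians near 0 in the TNFa pairs and lower signals with AdOVA. Of 36 listed assembly and nucleolar genes, 30 were measured. Their median log2 differences were 0.05 for TNFa over untreated and -0.02 for AdOVA+TNFa over AdOVA, where the ribosomal proteins had -0.47 and -0.97. For AdOVA over untreated it was -0.72, with 17 of 30 at least 1.5-fold lower, against 14% of all probe sets, where the ribosomal proteins had -0.36. In limma's fitted AdOVA contrast, which uses both AdOVA pairs, the medians were -0.61 for the assembly genes and -0.67 for the ribosomal protein genes. Limma called 5 of 30 fallen with AdOVA, against 3.86% of all: Npm1, Ncl, Heatr1, Rrs1 and Emg1. Npm1, a nucleolar chaperone, read 1189, 1151, 506, 412, 1145 and 737 (adjusted p 0.00164), so that both AdOVA arrays were below the other 4. Nucleolin (Ncl) read 825, 985, 507, 425, 812 and 631. Fibrillarin (Fbl), which methylates ribosomal RNA, was the only one risen for AdIkBa-SR against AdOVA with TNFa (105 to 315, limma adjusted p 0.0338). That is 1 of 30, against 2.35% of all probe sets. The difference between the 2 groups of genes was not tested.

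**Figure D5:**
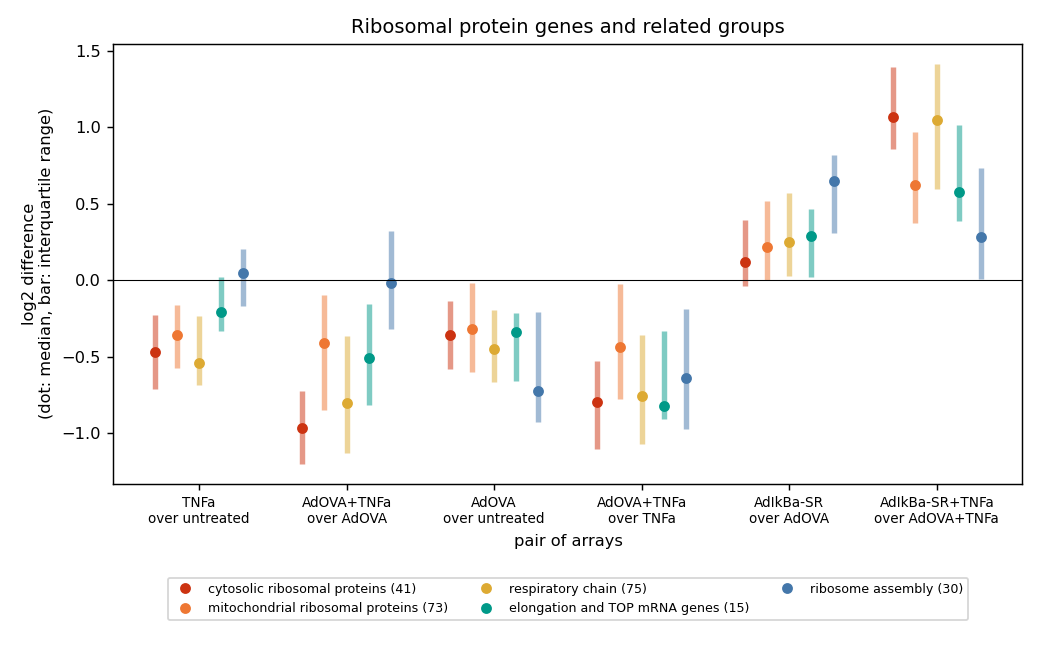
Median (dot) and interquartile range (bar) of the log2 difference in 6 pairs of arrays for the ribosomal protein genes and 4 related groups, with the number of measured genes in brackets. Assembly genes have medians of 0.05 and -0.02 in the TNFa pairs, where ribosomal protein genes have -0.47 and -0.97, and respiratory chain genes lie near the latter.

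Of 16 listed genes for RNA polymerase I, which transcribes ribosomal RNA, 11 were measured and 0 called by limma for TNFa, AdOVA or AdIkBa-SR. Of all probe sets, 3.86% had fallen with AdOVA and 2.35% risen for AdIkBa-SR against AdOVA with TNFa. At an unadjusted p under 0.05, 1 of the 11 was lower for TNFa and 1 lower for AdOVA (5.84% and 11.1% of all). In AdIkBa-SR against AdOVA with TNFa, 2 were higher (8.9% of all). Among 7 measured of 13 growth control genes, Myc, a transcription factor that drives ribosome production, read 126, 127, 61.7, 42.4, 141 and 112 and fell with AdOVA (adjusted p 0.0304). It was the only one of the 7 called, against 3.86% of all probe sets fallen with AdOVA. Elongation factors and other TOP messages (15 of 16 measured) had medians of -0.21 and -0.51 in the TNFa pairs. Of these, Eif3e and Eif3f fell with AdOVA, 2 of 15 against 3.86% of all probe sets. Eif3f and Eif3k rose with AdIkBa-SR against AdOVA in the presence of TNFa, 2 of 15 against 2.35% of all. Eef1a1, the abundant factor that brings aminoacyl-tRNA to the ribosome, read 9794, 9749, 8172, 5397, 8578 and 6806.

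Genes of the mitochondria showed lower signals in the same pairs. Mitochondrial ribosomal proteins (73 of 74 measured) had medians of -0.36 and -0.41 in the TNFa pairs, with 6 of 73 fallen with AdOVA, against 3.86% of all probe sets, among them Mrps14 (913, 534, 519.8, 269, 872 and 872). Subunits of the respiratory chain and ATP synthase, a list added after these values were seen (75 of 78 measured), had -0.54 and -0.80. Of these, 16 of 75 fell with AdOVA and 22 rose for AdIkBa-SR against AdOVA with TNFa, against 3.86% and 2.35% of all. With quantile normalization both counts became 1, against 0.733% fallen and 0.0404% risen of all probe sets. The 6 mitochondrial ribosomal proteins became 0 and the 5 assembly genes 1, against the same 0.733% fallen. With the round as a block no gene of these lists was called for AdOVA or AdIkBa-SR against AdOVA. As 0% of all probe sets passed there, this says nothing about these lists. Cox5a, a subunit of cytochrome c oxidase, read 3687, 2132, 1927, 884, 3442 and 2740.0. The median of AdIkBa-SR+TNFa over AdOVA+TNFa was 0.62 in the mitochondrial ribosomal proteins and 1.05 in the respiratory chain, next to 1.06 in the cytosolic ribosomal proteins.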

How the data were processed

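The authors deposited 1 linear microarray intensity per probe set. Per the submitters' processing notes it comes from MAS5, in a version that the sources used here do not give. Wash and stain settings of each array were taken from the file headers. Per these headers the AdIkBa-SR array had 0 cycles of washes A1 and B and a first stain of 420 s. All other arrays had 10 and 4 cycles and 600 s. Trimmed means of the arrays ran from 198.61 to 198.82, so no rescaling was done. Signals under 53.5 were set to 53.5 before log2. Named genes are the 5 per direction with the largest smaller difference of both pairs, limma calls, SD extremes, paralogs, and listed pathway members. Limma 3.58.1 (R 4.3.3) was fitted to all 6 arrays with 3 virus states, 1 TNFa response for cells without virus and with AdOVA and 1 for AdIkBa-SR cells, with a trend in the variance; an adjusted p under 0.05 was called. The fit was tested on simulated data. Its p-values measure spread between these arrays only. Array number limits precision. Members and lists were chosen with earlier results of these data known. Python 3.11.15 with pandas 2.3.3 and matplotlib 3.10.9 made the summaries and plots.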

Additional observations from a re-analysis of the deposited data

Results flagged for a closer look

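For 15 of 41 ribosomal protein genes the TNFa array was lower than its partner both without virus and with AdOVA, and higher in AdIkBa-SR cells. The count is near its background: of the 34 genes lower in both pairs, 15 were higher in AdIkBa-SR cells, as were 41% of all such probe sets. The opposite signs were not tested gene by gene. Limma's test of the difference in TNFa responses called 0 of 80 probe sets (20 higher at an unadjusted p under 0.05, against 2.61% of all). That test called no probe set of the whole array, so its 0 says nothing about the ribosomal proteins.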

How the results depend on the processing

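The median log2 differences for TNFa, AdOVA and AdIkBa-SR against AdOVA kept their sign under all 9 alternatives each that recompute the pairs, at -0.75 to -0.47, -0.73 to -0.36 and 0.12 to 0.78. Those without the AdOVA+TNFa array were added after seeing the data. The fitted medians of the 80 probe sets also kept their sign but moved. They went from -0.47, -0.63 and 0.69 in an additive model to -0.27, -0.30 and 1.03 with the hybridization round as a block. Dropping AdOVA+TNFa from the additive fit instead gave -0.27, -0.30 and 0.34. The fitted median for AdIkBa-SR against AdOVA thus moved in opposite directions under these changes. The counts of calls did not hold. The 17 probe sets fallen with AdOVA (3.86% of all probe sets) became 8 with equal array medians (2.82% of all), 2 with quantile normalization (0.733%), 0 with the threshold at the 20th percentile (0.159%), 10 with it at the 60th (2.7%), 0 with no filter (0%), 2 in the additive model (1.19%), 0 in that model with the round as a block (0%), and 0 in it without the AdOVA+TNFa array (0%). The 24 risen for AdIkBa-SR against AdOVA with TNFa (2.35% of all) became 1 (0.128%), 0 (0.0404%), 0 (0%), 8 (0.962%) and 0 (0.261%) under the first 5 of these. The additive models have a different contrast, AdIkBa-SR against AdOVA over both TNFa states, in which 0 (0.886%), 0 (0%) and 0 (0%) had risen. Where 0% of all probe sets passed, a count of 0 says nothing about the ribosomal proteins. The cause was not tested. Scaling to equal medians shifts the AdOVA+TNFa array by 0.19 (log2) against the untreated array. TNFa had 0 calls under each of these 8 fits, also over all probe sets.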
